A study of Xenopus tropicalis with 12 samples.

Results

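The comparison described here is that of TRα (-/-) hind limb with T3 against wild type (WT) hind limb with T3 in Xenopus tropicalis tadpoles. It was chosen by the labels alone and takes 6 of the 12 RNA-seq libraries, 3 of TRα (-/-) with T3 and 3 of WT with T3. TRα (-/-) tadpoles lack thyroid hormone receptor α. The labels give shared parents for both genotypes, while the methods of the study describe a cross of TRα (+/-) frogs for the TRα (-/-) animals and a purchased stock of WT frogs, so a difference in stock between the genotypes was not tested. Tadpoles of both groups were given 10 nM T3 for 18 hours at stages 52 to 54 per the labels, while the paper describes the limbs as stage 54. The remaining libraries, 3 of TRα (-/-) without T3 and 3 of WT without T3, are used as the setting in which the same genotype difference was measured without added hormone. The libraries of a group are technical replicates of 1 RNA sample, itself a mixture from several tadpoles. A group thus stands for 1 pool. Each SD below is between libraries of a pool, and each p-value measures a difference between pools by the spread of repeated libraries only, which leaves the variation between tadpoles out. In such bulk tissue, fewer cells of a type and less RNA per cell cannot be told apart.

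T3 is the active thyroid hormone and acts through nuclear receptors, TRα and TRβ, which bind T3 response elements as heterodimers with retinoid X receptors. Without hormone the receptor recruits corepressors to its target genes, and with hormone it recruits coactivators. In tadpoles the hind limb is among the early organs to respond to T3, when the limb bud grows and forms digits, and TRα is the main receptor there before metamorphosis. Animals without TRα still carry the TRβ gene. The genotype comparison with T3 asks what the hormone-treated limb lacks, or has in excess, when the liganded TRα is missing.

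Total counts ran from 32649742 to 43702049 in the TRα (-/-) libraries with T3 and from 35530816 to 52430305 in the WT libraries with T3. Of the 19921 genes in the file, 14320 had enough counts to be tested. The genes are identified by Ensembl IDs that no table at hand paired with symbols. The level of the knocked-out gene, markers of hind limb cell types and genes of named pathways were therefore not analysed here, and each gene below is given by its ID, its scaffold position in the JGI 4.2 assembly and its structure. Replicate 2 of WT with T3 stood furthest from its group, with a chi-square per degree of freedom of 10.7 and 10.3 against the other libraries of the pool, where the remaining pairs of the 4 groups had 1.86 to 6.19. Levels are in CPM, read counts per 1000000 counts of the library after scaling by the trimmed mean of M values (TMM), a scaling that assumes that most genes do not differ.

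The treated limb differed in many genes: 1633 were higher and 540 lower in TRα (-/-) than in WT, at a Benjamini-Hochberg adjusted p under 0.05 in edgeR's quasi-likelihood test and a difference of 2-fold or more. These are 11.4% and 3.77% of the genes tested. The difference reached 4-fold in 382 of the higher and 58 of the lower genes, and 8-fold in 100 and 16. The median log2 difference was 1.52 for the higher genes (median SE 0.13) and -1.24 for the lower genes (median SE 0.13), and both were the same to this precision with the called genes at 0 in a group set to their bound. The fold threshold set these counts, since the adjusted p alone was met by 10793 genes (75.4%). In 1595 of the higher genes every TRα (-/-) library lay above every WT library, and in 530 of the lower genes every one lay below. Over all genes tested, the libraries did not overlap in 38% with TRα (-/-) above and in 38.3% with TRα (-/-) below. Most calls were of modest level: 889 of the higher genes (54.4%) averaged under 5 CPM in TRα (-/-) with T3, and 288 of the lower genes (53.3%) averaged under 5 CPM in WT with T3. At the other end, 169 of the higher genes reached 100 CPM in TRα (-/-) with T3 and 22 of the lower genes reached it in WT with T3. Without replicate 2 of WT with T3 the counts were 1652 higher and 556 lower.

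The balance of higher and lower genes depended on the scaling. TMM factors were 0.926 to 0.956 in TRα (-/-) with T3 and 1.32 to 1.35 in WT with T3. Scaled by total counts alone, 815 genes were higher and 2609 lower in TRα (-/-), so that the higher genes were 23.8% of the calls in place of 75.1%, and the median log2 difference of all genes was -0.51 in place of -0.01. The sign of no called gene turned: all 815 were among the 1633, and all 540 lower genes were among the 2609. Under all 4 scalings tried 815 genes were higher and 519 lower. With DESeq2's own test required as well, 815 were higher and 506 lower. The genes named below by the rule on size kept their call under each of these scalings, with exceptions by total counts alone. ENSXETG00000001182 and ENSXETG00000006914 fell short there. Among the mitochondrial genes named below, ENSXETG00000034388 was called by total counts but not by TMM. For other genes near 2-fold the call is relative to the bulk of genes.

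**Figure D1:**
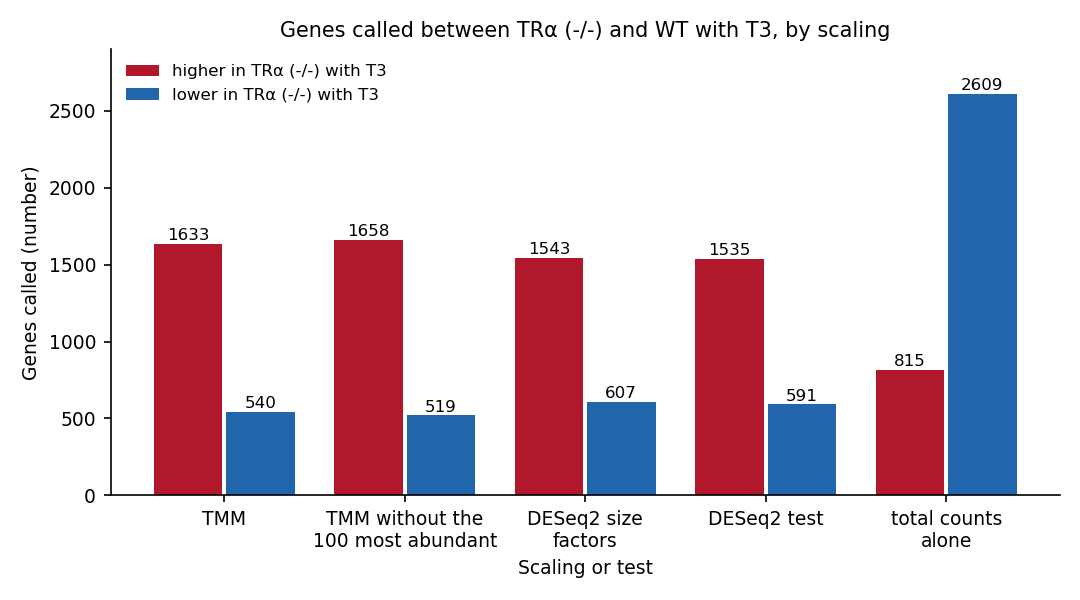
Number of genes called higher (red) or lower (blue) in TRα (-/-) than in WT with T3 under 4 scalings of the counts in edgeR and under DESeq2's test. The counts were 1633 and 540 with TMM, and 815 and 2609 with total counts alone; the other 3 settings lay near the TMM values.

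Among the 744 higher genes that reached 5 CPM in TRα (-/-) with T3 without overlap of the libraries, the 8 with the largest log2 difference were examined library by library. ENSXETG00000022374 (GL172733.1:2461879-2470299, - strand, 4 exon blocks, overlapping another gene) had 21.3, 21.0 and 20.7 CPM in TRα (-/-) with T3, against 0.146, 0.217 and 0.272 CPM in WT with T3. Its log2 difference was 6.60 ± 0.10 (SE, edgeR adjusted p 2.5e-26). The gene was close to silent in the treated WT limb alone, since without T3 it averaged 65.0 ± 2.5 CPM in TRα (-/-) and 111 ± 1.8 CPM in WT (SD, n = 3). ENSXETG00000007649 (GL173504.1:77725-80230, - strand, 2 exon blocks) had 7.09, 6.37 and 6.66 CPM in TRα (-/-) with T3, against 0.146, 0.246 and 0.195 CPM in WT with T3, and without T3 it averaged 3.85 CPM in TRα (-/-) and 2.76 CPM in WT. Its log2 difference with T3 was 5.04 ± 0.16 (SE). In both of these genes the treated WT pool was the one of the 4 pools that stood apart.

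ENSXETG00000006901 (GL172654.1:2472774-2508714, + strand, 27 exon blocks) had 10.5, 12.1 and 12.6 CPM in TRα (-/-) with T3, against 0.333, 0.420 and 0.214 CPM in WT with T3, a log2 difference of 5.13 ± 0.14 (SE). Here the genotypes lay apart whether or not T3 was given, with averages of 6.05 CPM in TRα (-/-) and 0.214 CPM in WT without T3. ENSXETG00000025667 (GL172993.1:931135-932667, - strand, 3 exon blocks) had 629, 632 and 628 CPM in TRα (-/-) with T3, against 24.1, 26.0 and 25.1 CPM in WT with T3, a log2 difference of 4.65 ± 0.04 (SE). Without T3 it averaged 1100 ± 47 CPM in TRα (-/-) and 0.471 ± 0.032 CPM in WT (SD, n = 3), so its genotype difference was smaller with T3 than without. The other 4 genes were ENSXETG00000000342 (GL173028.1, 23 exon blocks), ENSXETG00000031597 (GL172690.1, 44 exon blocks, overlapping another gene), ENSXETG00000034297 (GL173547.1, 9 exon blocks) and ENSXETG00000003560 (GL172997.1, 14 exon blocks). They averaged 8.78, 6.28, 5.92 and 7.55 CPM in TRα (-/-) with T3, in that order, against 0.386, 0.342, 0.340 and 0.433 CPM in WT with T3. Their log2 differences were 4.54, 4.18, 4.14 and 4.10. All 4 were also higher in TRα (-/-) without T3, by log2 differences of 1.75, 2.16, 2.79 and 2.03, and in each the excess was larger with T3 (interaction 1.35 to 2.79).

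**Figure D2:**
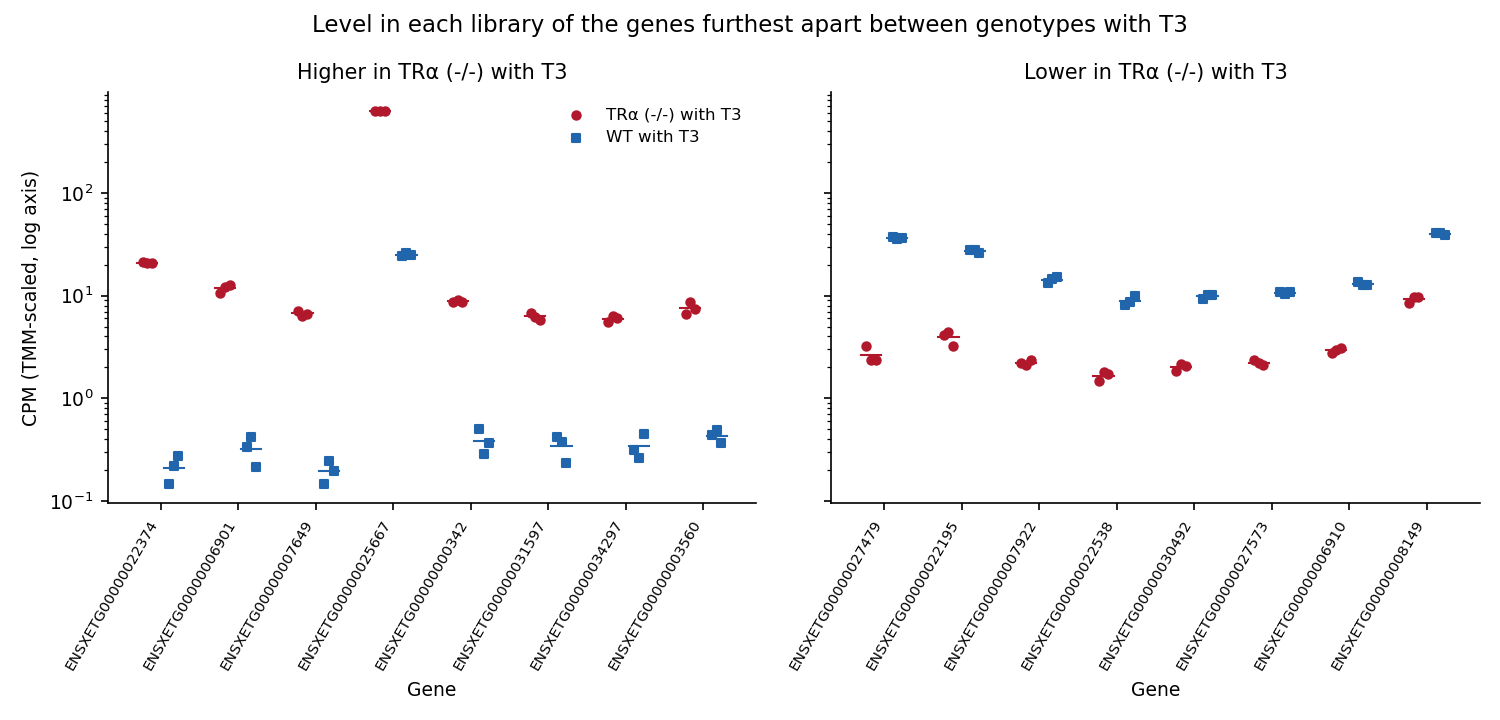
Level (CPM, log axis) in each library of the 8 genes most above WT (left panel) and the 8 most below WT (right panel) in TRα (-/-) with T3; red circles are the 3 TRα (-/-) libraries, blue squares the 3 WT libraries, and bars the group means. No gene's libraries overlap: ENSXETG00000022374 lies at 20.7 to 21.3 CPM in TRα (-/-) and at 0.146 to 0.272 CPM in WT, and ENSXETG00000027479 at 2.36 to 3.21 CPM in TRα (-/-) and at 35.9 to 37.4 CPM in WT.

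Among the 247 lower genes that met the same conditions, the differences were smaller. ENSXETG00000027479 (GL172794.1:112918-138075, - strand, 14 exon blocks) had 3.21, 2.36 and 2.37 CPM in TRα (-/-) with T3, against 37.4, 35.9 and 36.7 CPM in WT with T3, a log2 difference of -3.78 ± 0.09 (SE, edgeR adjusted p 2.72e-22). Without T3 the order was turned, with 2.29 ± 0.21 CPM in TRα (-/-) and 0.259 ± 0.11 CPM in WT (SD, n = 3). The TRα (-/-) level was thus nearly the same in both conditions, while the WT level was far higher with T3 than without. ENSXETG00000007922 (GL173084.1:1014611-1015618, + strand, 1 exon block) had 2.20, 2.09 and 2.34 CPM in TRα (-/-) with T3, against 13.2, 14.5 and 15.2 CPM in WT with T3. Its log2 difference was -2.70 ± 0.09 (SE). Without T3 each library of either genotype held only 1 to 4 counts of this gene, so that both treated pools stood above both untreated pools and the TRα (-/-) pool reached a lower level than WT.

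ENSXETG00000022195 (GL172755.1:480420-485977, - strand, 10 exon blocks) had 4.15, 4.43 and 3.24 CPM in TRα (-/-) with T3, against 27.6, 28.1 and 26.1 CPM in WT with T3, a log2 difference of -2.77 ± 0.07 (SE). In this gene the treated TRα (-/-) pool was the one that stood apart, since without T3 it averaged 21.1 CPM in TRα (-/-) and 15.4 CPM in WT. ENSXETG00000008149 (GL173046.1:896121-944218, + strand, 12 exon blocks) averaged 9.29 ± 0.64 CPM in TRα (-/-) with T3 and 40.2 ± 0.97 CPM in WT with T3 (SD, n = 3), and 7.92 CPM in TRα (-/-) and 2.01 CPM in WT without T3. The remaining 4 genes were ENSXETG00000022538 (GL172668.1), ENSXETG00000030492 (GL173258.1), ENSXETG00000027573 (GL172650.1) and ENSXETG00000006910 (GL172705.1, overlapping another gene). They averaged 1.66, 2.03, 2.23 and 2.94 CPM in TRα (-/-) with T3, in that order, against 8.83, 9.83, 10.7 and 13.0 CPM in WT with T3, with log2 differences of -2.41, -2.28, -2.26 and -2.14. Without T3 they averaged 2.57, 0.530, 1.29 and 3.73 CPM in TRα (-/-), in the same order, against 0.632, 0.214, 0.795 and 1.34 CPM in WT. In each of these 4 genes, as in ENSXETG00000027479 and ENSXETG00000008149, the TRα (-/-) level was below WT with T3 and above WT without T3.

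Most of the very abundant genes were higher in TRα (-/-) with T3. The 100 genes with the highest mean CPM over all 12 libraries, a ranking that is not per length, took 51.7% ± 0.28 of the counts in TRα (-/-) with T3 and 34.6% ± 0.55 in WT with T3, and 56.3% ± 0.48 in TRα (-/-) and 53.0% ± 0.094 in WT without T3 (SD, n = 3). Treated WT was the pool with the low share. Of these 100 genes, 80 were higher in TRα (-/-) with T3 and 0 lower, with a median log2 difference of 1.42, where the median of all genes tested was -0.01. By total counts 40 of them were higher and 0 lower, with a median of 0.92. Over all genes tested, 11.4% were higher and 3.77% lower by TMM, and 5.69% and 18.2% by total counts. Without T3 the median of the 100 abundant genes was 0.07. The 67 nuclear genes among them with under 1000 bp of exon had a median of 1.54, and 65 were higher. Of the 29 nuclear genes with 1000 bp or more, 15 were higher, with a median of 1.17. These classes were chosen with earlier results of these data known.

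The genes with the largest difference in mean CPM show the levels behind this. ENSXETG00000001182 (GL172904.1:649433-653481, + strand, overlapping another gene) had 26632, 26289 and 25832 CPM in TRα (-/-) with T3, against 10951, 12122 and 11619 CPM in WT with T3. ENSXETG00000021236 (GL173096.1:131590-134900, + strand) averaged 15449 ± 661 CPM in TRα (-/-) with T3 and 4356 ± 128 CPM in WT with T3 (SD, n = 3), against 16412 CPM in TRα (-/-) and 17800 CPM in WT without T3. ENSXETG00000007220 (GL172810.1, overlapping another gene), ENSXETG00000006914 (GL172705.1, overlapping another gene) and ENSXETG00000003706 (GL173353.1) had log2 differences with T3 of 1.91, 1.49 and 2.18. For all 5, treated WT was the lowest of the 4 pools. By total counts ENSXETG00000001182 and ENSXETG00000006914 fell short of the 2-fold threshold, at log2 differences of 0.68 and 0.99 in place of 1.18 and 1.49.

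The 5 lower genes of the same rule had log2 differences from -1.34 to -1.15. ENSXETG00000024628 (GL173369.1:222200-223400, + strand, 3 exon blocks) had 1673, 1612 and 1685 CPM in TRα (-/-) with T3, against 3598, 3620 and 3795 CPM in WT with T3. Without T3 it was higher in TRα (-/-), at 2787 CPM against 861 CPM in WT. ENSXETG00000016248 (GL172891.1:311590-336012, + strand, 39 exon blocks) had 815, 803 and 769 CPM in TRα (-/-) with T3, against 2040, 2027 and 1972 CPM in WT with T3, and 473 CPM in TRα (-/-) and 208 CPM in WT without T3. The order of its 4 pools ran from WT without T3, the lowest, through TRα (-/-) without T3 and TRα (-/-) with T3 to WT with T3. ENSXETG00000005359 (GL172975.1, 19 exon blocks) had the same order, at 360 CPM in TRα (-/-) with T3 and 864 CPM in WT with T3, and 92.4 CPM in TRα (-/-) and 48.4 CPM in WT without T3. ENSXETG00000007937 (GL173084.1:629331-635673) and ENSXETG00000016838 (GL173452.1:132624-137435) had log2 differences with T3 of -1.15 and -1.22, and of 0.19 and 0.20 without T3. All 5 were lower under total counts too.

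The genotype difference with T3 was then set against that without T3. The contrasts share no library. In the untreated limb TRα (-/-) exceeded WT in 1861 genes (13%) and fell below it in 1053 (7.35%). Of the 1633 genes higher with T3, 216 were also higher without T3, which is 13.2% of the genes higher with T3 and 11.6% of those higher without. A similar number, 201, were lower without T3 (12.3% of the genes higher with T3 and 19.1% of those lower without), and 1216 (74.5%) were not called without T3. Of the 540 genes lower with T3, 30 were also lower without T3 (5.56% of the genes lower with T3 and 2.85% of those lower without). A larger number, 169, were higher without T3 (31.3% of the genes lower with T3 and 9.08% of those higher without), and 341 (63.1%) were not called without T3. The genes higher with T3 had a median log2 difference of -0.08 without T3, and the genes lower with T3 one of 0.47. Across the 14320 genes, which are not independent and share the scaling within each contrast, the log2 differences with and without T3 had a Pearson r of -0.06 and a Spearman rho of -0.10. Over the 9792 genes that averaged 5 CPM or more the Pearson r was -0.11.

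The difference between the genotype contrasts was tested gene by gene as an interaction, the log2 genotype difference with T3 minus that without T3. It was called in 4906 genes (34.3% of those tested). Among the genes higher with T3, 1253 had an interaction in the same direction, 26 had one in the opposite direction, and in 354 it was not called. Among the genes lower with T3 the counts were 408, 3 and 129. In all, 1690 of the 2173 genes called with T3 had a genotype difference with T3 that was distinct from the one without T3. These genes were selected for their difference with T3, which enters the interaction, so their share is not to be read against that of all genes.

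**Figure D3:**
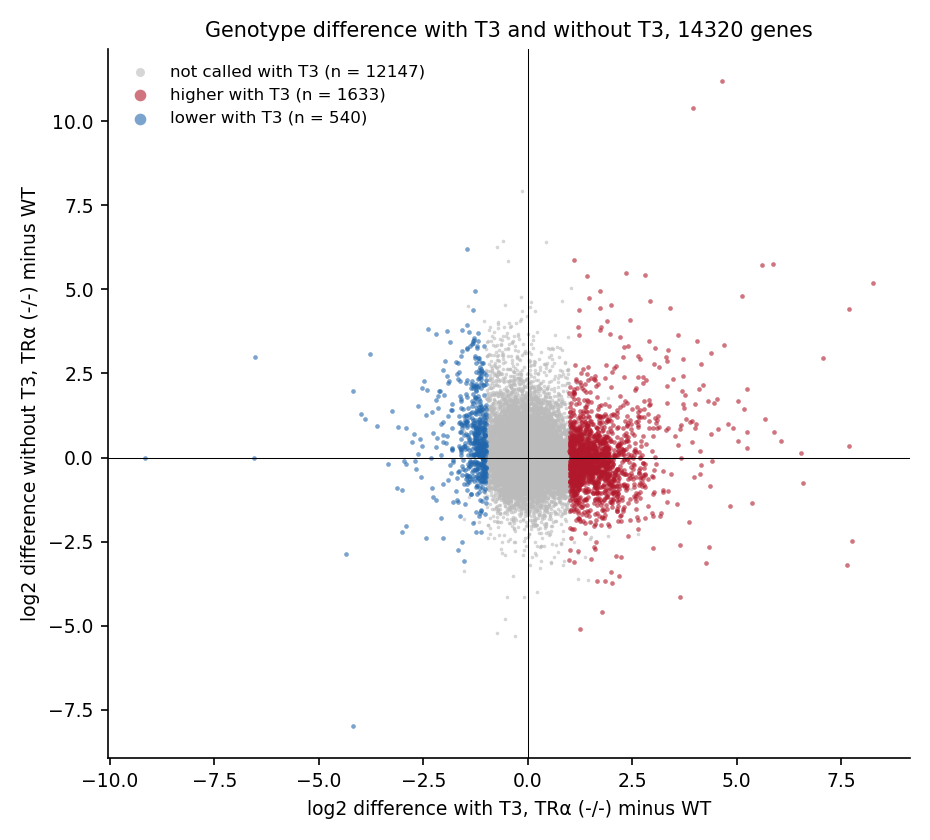
Log2 genotype difference, TRα (-/-) minus WT, with T3 (horizontal axis) and without T3 (vertical axis) for 14320 genes; red points are higher with T3, blue points lower with T3 and grey points not called with T3. The correlation is weakly negative (Pearson r -0.06, Spearman rho -0.10, and Pearson r -0.11 for genes that averaged 5 CPM or more). The genes lower with T3 lie mostly above 0 on the vertical axis (median 0.47).

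The genes called in opposite directions with and without T3 were followed at the largest interactions, and most of them were scarce. ENSXETG00000032679 (GL173700.1:117476-123380, + strand) had 24, 24 and 22 counts in the TRα (-/-) libraries with T3 and 0 counts in each WT library with T3. It was 35.2-fold higher in TRα (-/-), taking 3 counts over the WT group as the floor. The exact 95% interval of its ratio began at 27.8. Without T3 it had 4, 6 and 7 counts in TRα (-/-), against 50, 52 and 64 counts in WT. ENSXETG00000031752 (GL173696.1:180279-183809, - strand) had the same pattern, with 26, 31 and 19 counts in TRα (-/-) and 0 in each WT library with T3. It was 38.2-fold higher with the same floor, and the exact 95% interval began at 30.3. Without T3 it had 8, 8 and 18 counts in TRα (-/-) against 63, 63 and 76 in WT. In both, treated WT was the only pool without a count. ENSXETG00000014752 (GL172691.1:185024-200677, - strand) had 21, 30 and 32 counts in TRα (-/-) with T3, against 3, 1 and 2 counts in WT with T3, a ratio of 20.8 (exact 95% interval 9.18 to 58.4). These intervals cover counting error only, and a value at the floor leaves out the counting error of the pool that has counts. ENSXETG00000019281 (GL172941.1) had 2, 1 and 1 counts in TRα (-/-) and 0 in WT with T3, 2.01-fold higher with the floor. The exact 95% interval of its ratio began at 0.995, so equal levels lie within it. The call of this gene also rested on 1 library, since it did not pass without replicate 1 of TRα (-/-) with T3.

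In the other direction, ENSXETG00000020412 (GL172803.1:365197-370114, + strand, 10 exon blocks) had 0, 2 and 0 counts in TRα (-/-) with T3, against 94, 151 and 83 counts in WT with T3, a ratio of 0.00919 (exact 95% interval 0.00111 to 0.0334). Without T3 it had 12, 11 and 17 counts in TRα (-/-), against 1, 1 and 3 counts in WT. The gene was thus near its floor in treated TRα (-/-) and in untreated WT. ENSXETG00000005775 (GL172810.1:1389059-1396380, + strand) had 14, 11 and 6 counts in TRα (-/-) with T3, against 30, 54 and 45 counts in WT with T3, and ENSXETG00000029449 (GL172773.1:1563223-1563355, + strand) had 15, 17 and 5 counts in TRα (-/-) with T3, against 34, 63 and 38 counts in WT with T3. Neither had a count in untreated WT. In untreated TRα (-/-) ENSXETG00000005775 had 8, 7 and 7 counts and ENSXETG00000029449 had only 3, 2 and 4. The call of ENSXETG00000029449 was lost without replicate 3 of TRα (-/-) with T3, where its log2 difference was -0.998. ENSXETG00000027479, described above, was the fourth gene of this direction and the only one over 5 CPM.

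Of the genes with a genotype difference in the same direction in both conditions, 64 higher and 3 lower genes reached 5 CPM in both contrasts without overlap of the libraries. The 3 higher genes with the largest difference in both were ENSXETG00000006901 and ENSXETG00000025667, described above, and ENSXETG00000025664 (GL172993.1:939457-940502, - strand, 3 exon blocks), which lies next to ENSXETG00000025667 and has nearly the same exon length, 584 bp against 581 bp. ENSXETG00000025664 had 549.8, 544 and 546 CPM in TRα (-/-) with T3, against 34.3, 36.3 and 35.5 CPM in WT with T3. Its log2 difference was 3.95 ± 0.05 (SE) with T3, and without T3 it averaged 1173 CPM in TRα (-/-) and 0.850 CPM in WT. The neighbours thus shared their order over the 4 pools, and reads that could belong to either were not told apart here.

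The 3 genes lower in both conditions were ENSXETG00000007924 (GL173084.1:963993-973697, - strand, 8 exon blocks), ENSXETG00000021730 (GL172772.1:1186550-1334678, + strand, 22 exon blocks) and ENSXETG00000003895 (GL172642.1:6173640-6192579, - strand, 11 exon blocks). ENSXETG00000007924 had 5.31, 4.06 and 4.04 CPM in TRα (-/-) with T3, against 15.5, 14.9 and 15.8 CPM in WT with T3, and it averaged 4.89 CPM in TRα (-/-) and 12.2 CPM in WT without T3. ENSXETG00000021730 averaged 13.6 ± 0.95 CPM in TRα (-/-) with T3 and 31.2 ± 0.81 CPM in WT with T3, and 4.60 ± 0.39 CPM in TRα (-/-) and 9.82 ± 0.47 CPM in WT without T3 (SD, n = 3). It was higher with T3 than without in both genotypes while the TRα (-/-) level stayed under that of WT. ENSXETG00000003895 averaged 7.89 CPM in TRα (-/-) with T3 and 17.5 CPM in WT with T3, against 6.78 CPM in TRα (-/-) and 13.8 CPM in WT without T3. The interactions of these genes were -0.45, -0.11 and -0.13, none past the 2-fold threshold.

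The share of genes called varied with their structure in the annotation. Of the 629 genes with 1 exon block, 20.5% were higher in TRα (-/-) with T3, and the share fell through 14.7% (2 to 4 blocks), 13.2% (5 to 9) and 9.61% (10 to 19) to 5.84% of the 2295 genes with 20 to 49 blocks. By total counts these shares were 10.8%, 8.02%, 6.61%, 4.26% and 3.05%. Among genes at or above the median level, which held only 105 of the 629, they were 12.4%, 9.07%, 9.88%, 5.62% and 2.88% by TMM, a less even fall. The share of lower genes depended on the scaling: it was 4.29%, 2.98%, 2.81%, 4.28% and 5.53% in the same classes by TMM, and 16.2%, 13.7%, 13.5%, 20.04% and 28.5% by total counts. Of the 184 genes with 50 or more blocks, 12 were higher (6.52%) and 1 lower (0.54%) by TMM, so the share higher fell no further. By total counts 6 of them were higher (3.26%) and 42 lower (22.8%). Over all genes tested the shares were 11.4% and 3.77% by TMM, and 5.69% and 18.2% by total counts. By summed exon length, 18.4% of genes under 1000 bp were higher, against 12.6% from 1000 to under 2000 bp, 7.82% from 2000 to under 4000 bp and 5% from 4000 bp on. By total counts the shares higher were 10.8%, 5.70%, 3.61% and 2.61%. The share lower in the same length classes was 3.17%, 3.48%, 4.40% and 3.99% by TMM, and 12.7%, 16.6%, 21.6% and 24.1% by total counts. Relative to the median of all genes, the median log2 difference ran from 0.18 in the shortest class to -0.16 in the longest, by TMM, and total counts, which shift all genes alike, gave the same relative values. The order of the length classes was the same among the 7160 genes at or above the median level, where 16.4%, 6.88%, 5.11% and 2.48% were higher. The shortest class there includes the 67 abundant nuclear genes described above, 65 of them higher, and these shares were not counted without them. Over all levels, the median without the 100 most abundant genes was 0.15 in the shortest class and -0.17 in the longest. Without T3 the gradient was also present, with 19.6% of the shortest and 8.33% of the longest class higher in TRα (-/-), so it is not particular to the treated pools.

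**Figure D4:**
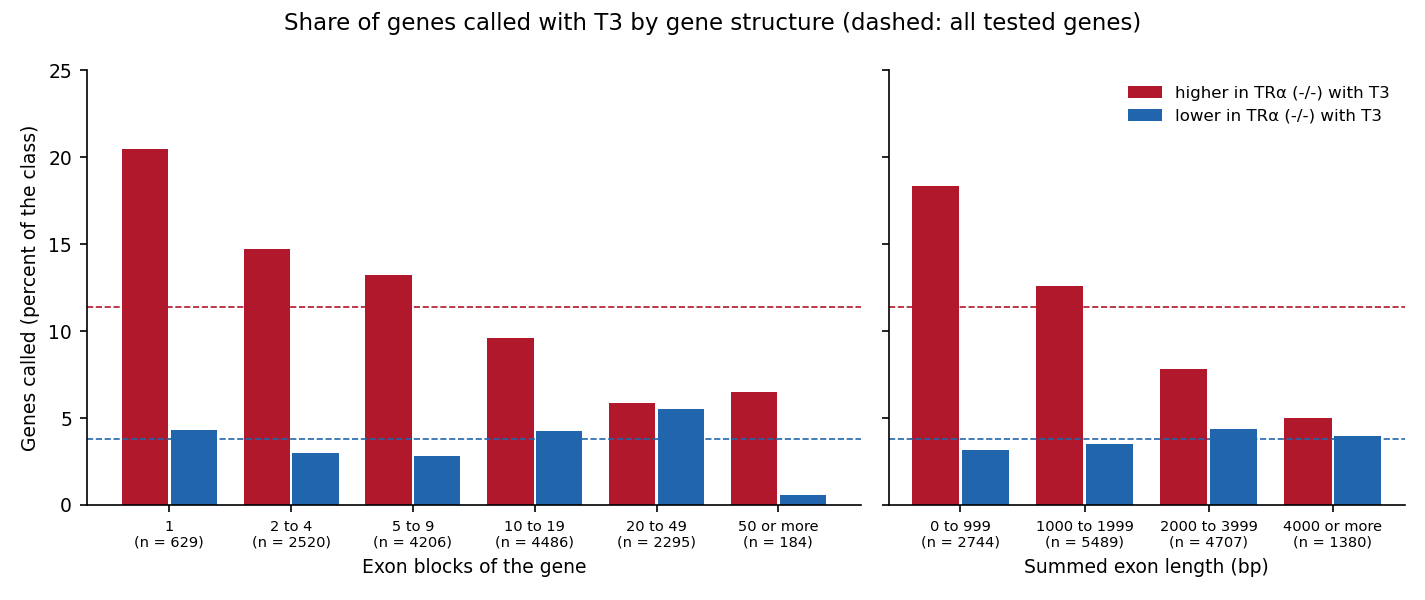
Percent of tested genes called higher (red) or lower (blue) in TRα (-/-) than in WT with T3, by number of exon blocks (left panel) and by summed exon length in bp (right panel); dashed lines mark all tested genes, 11.4% higher and 3.77% lower. The share higher fell with exon length, to 5% from 4000 bp on against 18.4% under 1000 bp, while the share lower stayed between 3.17% and 4.40% with the TMM scaling drawn here and was 12.7% under 1000 bp and 24.1% from 4000 bp on by total counts.

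By level, calls in both directions were densest among scarce genes. In the lowest quartile of mean log2 CPM 22.5% of genes were higher and 8.77% lower, against 8.02% and 0.754% in the highest quartile. The filter bears on this, since a scarce gene could be kept for testing because it was high in a single group. The shares by quartile were not counted under another filter, so no conclusion on scarce genes is drawn from them. The mitochondrial genome encodes subunits of the respiratory chain with rRNAs and tRNAs. Its 37 genes took 2.12% ± 0.14 of the counts in TRα (-/-) with T3 and 2.47% ± 0.18 in WT with T3 (SD, n = 3). Of the 23 tested, 2 were higher (8.70%) and 0 lower with T3, where 11.4% and 3.77% of all genes tested were. These counts thus set the mitochondrial genes little apart, and their median log2 difference was 0.21 by TMM. By total counts the sign of the median turned, with 1 higher, 2 lower and a median of -0.29, as in the shares of counts. Relative to the median of all genes, the mitochondrial median was 0.22 under both scalings. Without T3 the mitochondrial median by TMM was 1.35, and 69.6% of these genes were higher in TRα (-/-), against 13% of all genes tested. The extremes were ENSXETG00000034364 (69 bp), with 15, 10 and 11 counts in TRα (-/-) with T3 and 1, 4 and 6 counts in WT with T3, and ENSXETG00000034388 (519 bp), with 210, 115 and 85 counts in TRα (-/-) and 299, 481 and 252 counts in WT. Both overlap another gene of that sequence. The reads described in the paper are longer than the 69 bp of ENSXETG00000034364. Its counts may therefore include reads of its neighbours, which was not tested. The log2 difference of ENSXETG00000034388 was -0.74, under the threshold. It passed the threshold by total counts, at -1.24, and without replicate 1 of TRα (-/-) with T3, at -1.12.

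Some of the genes called higher with T3 were neighbours on a scaffold. For 1344 higher genes the next tested gene on the scaffold could be read, and it was also higher in 284 (21.1%), where 11.4% of all genes were higher. For 458 lower genes it was also lower in 32 (6.99%), where 3.77% of all genes were lower. Leaving out overlapping neighbours gave 21.2% and 7.02%. Neighbouring genes that resemble each other may share reads, and the part of such reads in these shares was not tested.

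There were 4 runs of 7 or more tested genes in a row that were all higher in TRα (-/-) with T3, and they were looked for after the values were seen. The longest held 9 genes on GL172699.1 between 369707 and 689625, 8 of them on the - strand, with 5 to 11 exon blocks each. Their log2 differences with T3 ran from 1.15 to 3.35 (median 2.54). In all 9 the libraries did not overlap, but this held for 1595 of the 1633 genes called higher, so the calls that define the run nearly fix it. Without T3 the same genes had log2 differences from -1.15 to -0.26, 3 of them called lower, so the whole run changed its side. The genes of this run averaged 0.290 to 23.7 CPM in TRα (-/-) with T3. ENSXETG00000011104, the most abundant of them, averaged 23.7 ± 0.29 CPM in TRα (-/-) with T3 and 4.61 ± 0.29 CPM in WT with T3, and 52.6 ± 1.4 CPM in TRα (-/-) and 99.1 ± 1.4 CPM in WT without T3 (SD, n = 3). It overlaps the next gene of the run, ENSXETG00000032030, on the same strand, and 3 genes of the run overlap another gene. The scaffold held 38 tested genes in all, of which 16 were higher and 2 lower. By total counts 8 of the 9 genes passed.

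The second run held 8 genes on GL173117.1 between 40496 and 381265, with log2 differences with T3 from 1.41 to 3.32 and without T3 from -1.53 to 0.54, and 7 passed by total counts. The genes of this run averaged 0.552 to 121 CPM in TRα (-/-) with T3, and 1 of them overlaps another gene. ENSXETG00000027561 was the most abundant of them and the one that fell short by total counts, at a log2 difference of 0.91. It averaged 121 ± 4.0 CPM in TRα (-/-) with T3 and 45.3 ± 0.30 CPM in WT with T3, against 242 CPM in TRα (-/-) and 295 CPM in WT without T3 (SD, n = 3). As for ENSXETG00000011104, treated WT was the lowest pool and untreated WT the highest. On GL173214.1, 7 of the 9 tested genes were higher with T3, in a run between 129310 and 710126, all under 3 CPM on average in both pools. ENSXETG00000032550 there had a log2 difference of 1.93 with T3 and of -0.14 without T3, and the run's differences with T3 went from 1.11 to 1.93, of which 2 passed by total counts. The fourth run, 7 genes on GL172742.1 between 1152095 and 1485259, was less uniform, with log2 differences without T3 from -0.01 to 2.03, and 5 of its genes passed by total counts. Its genes were scarce, averaging 0.286 to 4.50 CPM in TRα (-/-) with T3 and 0 to 0.787 CPM in WT with T3. The interaction was called in 4 of them.

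**Figure D5:**
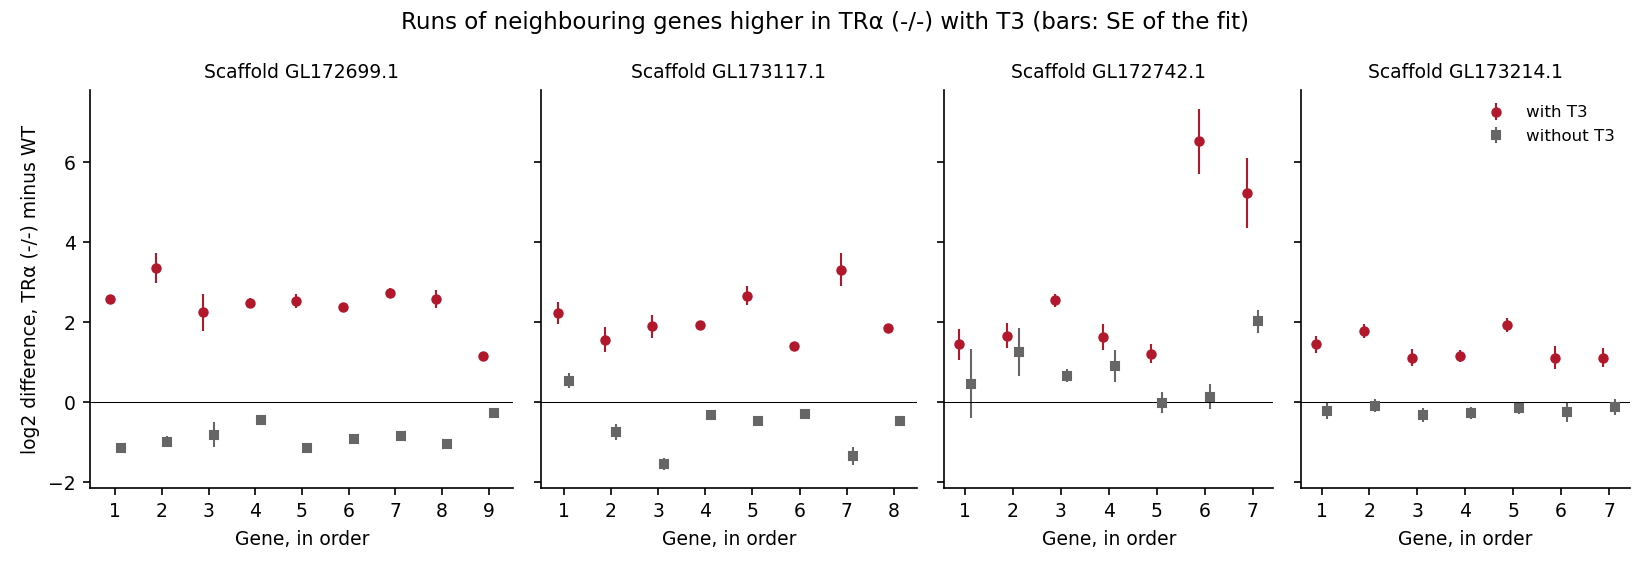
Log2 genotype difference, TRα (-/-) minus WT, with T3 (red circles) and without T3 (grey squares) for the genes of the 4 longest runs of neighbours, in order along each scaffold. Bars are approximate SEs derived from the edgeR test. In the run of 9 genes every difference with T3 lies between 1.15 and 3.35, and every difference without T3 lies between -1.15 and -0.26. Gene 6 on GL172742.1 had 0 counts in WT with T3, so its fitted difference is no bound.

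The longest runs of lower genes held 3 genes each, on GL173195.1 and GL173290.1. In the first, ENSXETG00000006460 (GL173195.1:517066-628593, - strand, 24 exon blocks) averaged 44.1 ± 1.5 CPM in TRα (-/-) with T3 and 91.3 ± 3.2 CPM in WT with T3, against 26.0 ± 2.0 CPM in TRα (-/-) and 2.62 ± 0.60 CPM in WT without T3 (SD, n = 3). In the second, ENSXETG00000025338 (GL173290.1:403750-408319, + strand, 8 exon blocks) had 0 counts in each TRα (-/-) library with T3. The WT libraries with T3 had 88, 121 and 92 counts. It was 66.6-fold lower in TRα (-/-), taking 3 counts over the TRα (-/-) group as the floor. The exact 95% interval of its ratio, which covers counting error only, ended at 0.0186. The gene had 0 counts in all 6 libraries without T3 as well. Treated WT was therefore the only pool in which a transcript of this gene was counted. The gene could be kept for testing through that pool alone, so its fold describes this gene and is no evidence on others. Among the named genes, 3 lower ones lay on GL173084.1, ENSXETG00000007937, ENSXETG00000007924 and ENSXETG00000007922, a scaffold of 25 tested genes with 2 higher and 4 lower.

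Counts in a single genotype with T3 were otherwise rare. In 5 tested genes every TRα (-/-) library with T3 was at 0 and in 10 every WT library with T3 was at 0. Beside ENSXETG00000025338, ENSXETG00000008526 (GL173308.1:376537-382593) had 0 counts in TRα (-/-) with T3 and 18, 15 and 16 counts in WT with T3. It was 10.8-fold lower with the same floor, and the exact 95% interval of its ratio ended at 0.118. Again there were 0 counts in all libraries without T3, so this gene too could be kept for testing through treated WT alone. ENSXETG00000007356 (GL172791.1:173672-186223) had 0 counts in TRα (-/-) with T3 against 2, 3 and 4 counts in WT with T3, and 0 counts in TRα (-/-) against 25, 22 and 33 counts in WT without T3, so no read of it was counted in either TRα (-/-) pool. At 0 in WT with T3, the best counted gene was ENSXETG00000001904 (GL173168.1:362163-365378, + strand, 2 exon blocks), with 43, 39 and 26 counts in TRα (-/-) with T3. It was 54.2-fold higher with the same floor over the WT group, and the exact 95% interval of its ratio began at 43.4. It was scarce in WT without T3 too, with 33, 53 and 29 counts in TRα (-/-), against 0, 2 and 1 counts in WT. The rest of these genes had at most 31 counts in any library with T3.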

How the data were processed

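RNA was measured in 12 hind limb libraries (3 per group). Libraries were made by the authors with the TruSeq kit after poly-A selection. Paired-end reads were mapped with STAR to the Ensembl JGI 4.2 genome and assigned to genes with featureCounts. The submitters' processing notes give STAR 2.5.3a and featureCounts 1.4.6-p3, while the methods of the paper name other versions of both. The file deposited holds raw, unnormalized read counts for each gene with exon coordinates and summed exon length. Strand and multi-mapping settings were not given in the sources used here, so overlapping genes (720 of those tested, by span on either strand) and similar genes are uncertain.

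Of 19921 genes, 2363 had no count, and edgeR's filterByExpr kept 14320. Counts were scaled by TMM and fitted over all 12 libraries with 1 mean per group (R 4.3.3, edgeR 4.0.16, glmQLFit and glmQLFTest). Contrasts were TRα (-/-) minus WT with T3, the same without T3, and their difference (interaction). The SE of a log2 difference was derived as its absolute value over the square root of the test's F statistic, and is approximate. A gene was called at a Benjamini-Hochberg adjusted p under 0.05 over all tested genes and 2-fold. The common biological coefficient of variation, 0.0421, is a technical value. Scripts were tested on simulated data. Library pairs of a group differed by more than sampling noise, so none was merged. Alternatives were DESeq2 1.42.0, its size factors, total counts, TMM without the 100 most abundant genes, other filters and thresholds, a replicate block, the 6 libraries alone, summed pools with an assumed spread, and leaving out each library.

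Named genes were the 8 highest and 8 lowest log2 differences (at least 5 CPM in the higher group, no overlap of libraries), the 5 and 5 largest CPM differences, the 4 and 4 largest interactions among genes called in opposite directions, the 3 and 3 strongest in the same direction, and the mitochondrial extremes; genes of the runs and those at 0 were chosen after their values were seen. The comparison, lists and alternatives were chosen with earlier results of these data known. None of the 28858 entries of the name table (UCB_Xtro_10.0) carries an Ensembl ID, and 0 IDs were matched, so lists of symbols were not used.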

Additional observations from a re-analysis of the deposited data

Results flagged for a closer look

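In 34 of the 39 named genes the genotype difference with T3 was distinct from that without T3 by the edgeR interaction test (adjusted p under 0.05, 2-fold); values are log2, with T3 minus without T3. All were named for a difference with T3 or for the interaction itself, so their share is not evidence on other genes.

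Among the genes most above WT with T3, the interaction was 7.37 for ENSXETG00000022374, 4.55 for ENSXETG00000007649, 2.79 for ENSXETG00000000342, 2.06 for ENSXETG00000003560, 2.03 for ENSXETG00000031597 and 1.35 for ENSXETG00000034297. It was negative for the neighbours ENSXETG00000025667 (-6.53) and ENSXETG00000025664 (-6.46), whose genotype difference was larger without T3.

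Among the genes most below WT with T3 it was -6.87 for ENSXETG00000027479, -4.41 for ENSXETG00000022538, -4.10 for ENSXETG00000008149, -3.65 for ENSXETG00000030492, -3.61 for ENSXETG00000006910, -3.23 for ENSXETG00000022195, -2.98 for ENSXETG00000027573 and -2.61 for ENSXETG00000007922. The last rests on 1 to 4 counts per library without T3.

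Among the genes with the largest CPM differences it was 1.94 for ENSXETG00000021236, 1.75 for ENSXETG00000003706, 1.61 for ENSXETG00000006914 and 1.30 for ENSXETG00000007220. For the lower ones it was -2.84 for ENSXETG00000024628, -2.53 for ENSXETG00000016248, -2.20 for ENSXETG00000005359, -1.42 for ENSXETG00000016838 and -1.34 for ENSXETG00000007937.

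The genes chosen for opposite calls had 7.41 (ENSXETG00000014752) and -9.52 (ENSXETG00000020412). A group at 0 counts makes the fitted values of 10.85 for ENSXETG00000032679, 10.26 for ENSXETG00000031752, 7.77 for ENSXETG00000019281, -7.65 for ENSXETG00000005775 and -6.20 for ENSXETG00000029449 depend on the prior count, and they are no bounds. The mitochondrial genes had 1.99 (ENSXETG00000034364) and -2.10 (ENSXETG00000034388).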

How the results depend on the processing

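Results are given in the order higher and lower with T3, higher in both conditions, higher with but lower without T3, lower in both, lower with but higher without T3, and called with a distinct interaction (1633, 540, 216, 201, 30, 169 and 1690). Total counts alone gave 815, 2609, 125, 128, 170 and 460 for the first 6. At least 10 counts in every library gave 334 lower genes and 111, 121, 10 and 95 for the 4 combinations. The test against 2-fold gave 1048, 217, 98, 84, 4, 67 and 975, and the adjusted p alone 5390, 5403, 2000, 2247, 1923, 2341 and 8870. Summed pools with an assumed biological coefficient of variation of 0.4 gave 64, 9, 11, 0, 0, 0 and 24, so few of the calls would pass if tadpole pools varied that much. Leaving out each library gave 1619 to 1662, 530 to 594, 210 to 228, 190 to 210, 28 to 34, 167 to 179 and 1678 to 1721. The other alternatives stayed within 1.5 times of these counts. The medians of the structural classes moved with total counts as all genes did (-0.51). For the named genes, 721 of 727 values kept their call and 0 turned direction, and the rest are given in the report. These values cover DESeq2, the scalings, the low-count filters, the replicate block and each library left out. The other thresholds, the 6 libraries alone and the summed pools are not among them. Leaving out a library without T3 could hardly move a difference with T3, and leaving out a treated library removed only a technical replicate. The share of values that kept their call is therefore no measure of how the calls would hold in other tadpoles. A named gene dropped by a filter gave no value there. With at least 10 counts in every library this held, among others, for ENSXETG00000022374, ENSXETG00000006901, ENSXETG00000007649, ENSXETG00000027479, ENSXETG00000007922 and ENSXETG00000030492. With summed pools 0 genes were called in opposite directions, so the genes named for opposite calls did not keep both calls there. Replicate numbers did not pair the libraries (correlations of deviations from -0.14 to 0.19 over 18 pairs); with the replicate block 1633 genes were higher and 538 lower. Variation between tadpoles was not measured, and whether most genes are alike, as TMM assumes, was not tested.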
